A study of Homo sapiens with 14 samples.

Results

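RING1A binding was compared between control DU145 cells and DU145 cells with a stable knockdown of EED. DU145 is an established human prostate cancer cell line. Control cells carried a scramble construct, knockdown cells carried a construct labelled sh3, and both lines were selected with puromycin. The 1 construct label means that an effect of the construct cannot be told apart from an effect of EED. Chromatin immunoprecipitation followed by sequencing (ChIP-seq) gave 1 RING1A library a side, with the same rabbit antibody. The members are the peaks of these 2 deposited lists, 56011 in control and 4072 in knockdown cells. Together they are 60083 of the 227479 peaks of 14 libraries, which cover 7 antibodies in each cell line. Coordinates are hg19. Sites are named by position, because genes, exons and introns of hg19 were not assigned here.

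RING1A is one of a pair of paralogous E3 ubiquitin ligases, the other being RING1B, that form the catalytic core of Polycomb repressive complex PRC1. PRC1 places ubiquitin on histone H2A (the uH2A mark) and compacts chromatin. BMI1 is a PCGF subunit that pairs with either ligase in the canonical form of PRC1. That form also holds CBX proteins, which bind H3K27me3. The mark H3K27me3 is placed by the other Polycomb complex, PRC2, in which EED is a core subunit that binds the mark and keeps the enzyme active.

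Each side has 1 library, so the differences have no replicate check and carry no p-value. Intervals are 95% intervals that cover counting error and treat peaks as independent, although neighbouring peaks share reads and sequence. Read totals are unknown. A shorter knockdown list therefore cannot be told apart from a library that was shallower or less enriched. In the same pair of cell lines the EED antibody gave 13082 control and 1372 knockdown peaks, which is the direction that the labels imply, though a peak number is not an EED protein level.

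The heights in the lists had to be settled before any ranking. RING1A peaks with a height of 0 numbered 2189 in control cells, 3.91% of the list, and 455 in knockdown cells, 11.2%. These are exactly the peaks on chromosomes 22, X and Y. Each of the 2189 control and 455 knockdown peaks there had height 0, and 0 peaks on other chromosomes did. Their offset within the peak was 1 in every case. The lists of RING1B, BMI1 and H3K27me3 show the same pattern in both cell lines, for example 1449 of 1449 BMI1 control peaks on these 3 chromosomes. The EED and uH2A lists have no peak of height 0, and their lowest heights lay between 16 and 24. Height 0 thus goes with the chromosome in these lists, and it was not read as weak binding. A control peak of height 0 had a median length of 150 bp against 125 bp for the rest, and 41.98% of them lay on a control BMI1 peak against 20.9% of the rest. The classes of height and the tallest peaks named below therefore come from the other chromosomes. Library medians of height count the peaks of height 0 and were 58.6 in control and 50.2 in knockdown cells, against 59 and 53 without them. Comparisons of the 4072 tallest control peaks set them against the whole knockdown list, its 455 peaks of height 0 included.

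The EED knockdown list held 0.0727 times as many RING1A peaks as the control list (exact interval 0.0704 to 0.0751). The control peaks covered 9.07 Mb and the knockdown peaks 0.880 Mb. On the 3 chromosomes without heights there were 1714, 198 and 277 control peaks for 22, X and Y and 167, 54 and 234 knockdown peaks. On the other chromosomes the ratio was 0.0672. Among peaks that reached the control median height it was 0.0463, although heights were not scaled between libraries.

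RING1A peaks were short in both cell lines. The control list ran from 75 to 5050 bp, with quartiles of 100, 125 and 175 bp, and 22.95% of its peaks had the minimum length of 75 bp. The knockdown list ran from 75 to 4275 bp, with quartiles of 100, 175 and 250 bp, and 15.2% of its peaks were 75 bp long. Peaks over 500 bp made up 2.10% of the control list (1.99 to 2.23) and 5.23% of the knockdown list (4.57 to 5.96). The knockdown list was thus the one with longer peaks, with a median 50 bp higher, or 25 bp higher outside high-signal windows. A 100-kb window counted as high-signal, together with both adjoining windows, where 2 or more of the other antibodies had a peak whose height exceeded 10 times its own library median. The order turned when the lists were matched in number: the 4072 tallest control peaks had a median of 300 bp, 125 bp more than the knockdown peaks.

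**Figure D1:**
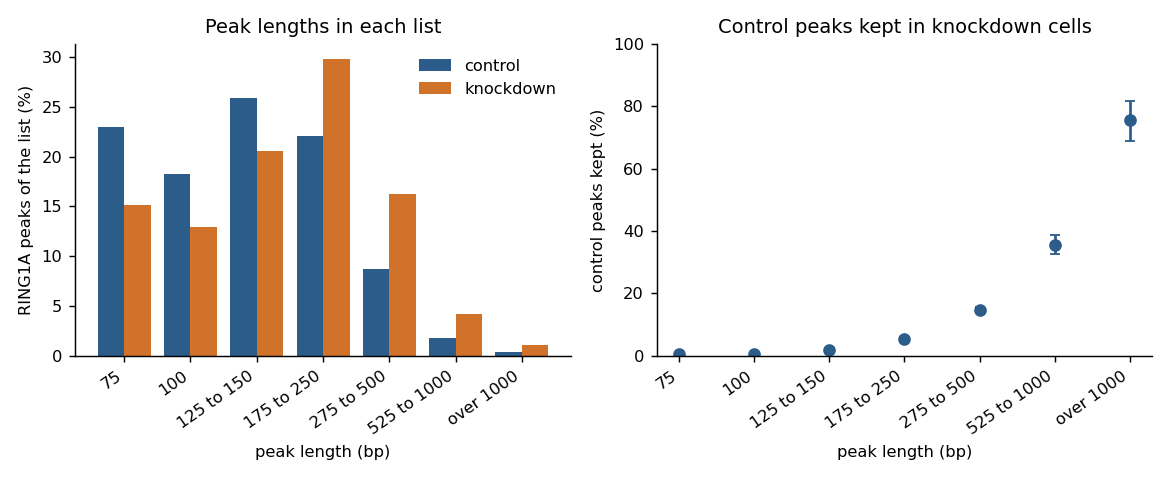
Left, share of the RING1A peaks of each list (percent) in 7 classes of length (bp), control in blue and knockdown in orange. Right, percent of control peaks that overlap a knockdown peak in each class, with Clopper-Pearson intervals; the share goes from 0.443% at 75 bp to 75.7% over 1000 bp.

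Site by site, knockdown peaks were narrower than the control peaks they met. In 1986 cases 1 control peak met 1 knockdown peak and no other. The median length in these pairs was 250 bp in control and 175 bp in knockdown cells. The knockdown peak was the shorter one in 1355 pairs (68.2%, 66.1 to 70.3), equal in 165 and longer in 466. It lay wholly inside the control peak in 1186 pairs, and in 66 of these both edges were the same. The midpoints of the pairs were a median of 37.5 bp apart. Across the 1780 pairs with heights, the heights of the 2 libraries had a Spearman rank correlation of 0.53, which describes sites that are close together and share depth. Some broad control peaks were broken up: 192 control peaks met more than 1 knockdown peak, while 58 knockdown peaks met more than 1 control peak.

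The longest sites show both outcomes. The longest control peak, 5050 bp at chr15:22040151-22045200, held 9 separate knockdown peaks that together spanned 2025 bp. The second, 4300 bp at chr5:34189351-34193650, met 1 knockdown peak of 4275 bp with the same start, which was also the longest knockdown peak. Those at chr14:19498451-19502650 (4200 bp) and chr1:148927776-148931075 (3300 bp) each met 5 knockdown peaks, of 1175 and 1875 bp in all. The fifth, at chr1:2583551-2586600 (3050 bp), met 6 of 1425 bp in all. All 5 lay on control peaks of RING1B, BMI1 and uH2A mouse. The next longest knockdown peaks, both 3750 bp, were at chr1:161435826-161439575 and at chr4:49286826-49290575, where the control list had 3 and 5 separate peaks.

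Of the 56011 control peaks, 2280 were kept, meaning that they shared at least 1 bp with a knockdown RING1A peak. That is 4.07% (percent kept over all control peaks), against 3.81% for H3K27me3, 5.79% for EED, 10.7% for uH2A mouse, 20.7% for RING1B, 21.1% for BMI1 and 28.8% for uH2A rabbit by the same rule. These shares depend on how many knockdown peaks each antibody has per control peak. That ratio was 0.0727 for RING1A, 0.119 for H3K27me3, 0.105 for EED and 0.211 for uH2A mouse. For RING1B it was 0.337, for BMI1 0.301 and for uH2A rabbit 0.418. The kept RING1A peaks were longer, with quartiles of 175, 275 and 475 bp against 100, 125 and 175 bp for the 53731 lost ones. Kept shares were 0.443% (0.336 to 0.574) of 12857 peaks of 75 bp, 1.85% of those of 125 to 150 bp and 14.7% of those of 275 to 500 bp. They were 35.7% of 989 peaks of 525 to 1000 bp and 75.7% (68.9 to 81.6) of 189 longer ones. A longer peak meets another peak more easily, so part of this order is built into the rule.

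Height separated kept from lost sites less evenly. In 4 equal classes of control height, the lowest 3 kept 0.498%, 0.476% and 0.959%, and the tallest kept 13.4% (12.8 to 13.97). Within that tallest class the share still went with length, from 2.53% of 198 peaks of 75 bp to 77.0% of 183 peaks over 1000 bp. Among the 4072 tallest control peaks, a choice of both height and number, the share kept was 36.9%.

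Most lost sites were far from any remaining RING1A peak. The median gap from a lost control peak to the nearest knockdown peak was 1105950 bp, and 41945 lost peaks (78.1%) were over 100 kb away. The knockdown list had 1.32 peaks per Mb, so wide gaps follow in part from its size. Gaps from arbitrary positions were not measured. Near misses were few, with 1417 (2.64%) within 1 kb. The tallest lost peaks over 1 kb from a knockdown peak, outside high-signal windows, were 5 sites of 100 to 350 bp. The first was at chr2:230045451-230045600, with a height of 523, and lay on control peaks of RING1B and BMI1. In knockdown cells it lay on an H3K27me3 peak, where the control list had none. The others were at chr12:20704326-20704475, chr4:68264676-68264825, chr17:41465976-41466325 and chr6:119558526-119558625. At the last 3 of these no antibody had a knockdown peak.

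New sites mostly lay within 10 kb of a control RING1A peak, but not directly beside one. Of the 4072 knockdown peaks, 1601 had no control RING1A peak, which is 39.3% (37.8 to 40.8). Their median gap to a control RING1A peak was 1650 bp. Within 1 kb lay 611 of them, within 10 kb 1400 (87.4%), and 25 (1.56%) were over 100 kb away. They were shorter than the 2471 knockdown peaks on control sites, with medians of 150 and 200 bp. The tallest new peaks over 1 kb from a control peak and outside high-signal windows were led by one at chr21:11186676-11186825, 1975 bp from a control peak and with a height of 515. It lay on a control BMI1 peak. The next were at chr1:566076-566675, chr4:190154876-190155275, chr9:68426076-68426350 and chr11:964876-965200. These 4 had RING1B and H3K27me3 peaks in both cell lines.

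RING1A peaks gathered in clusters in both lists. In control cells 66.9% of peaks had another RING1A peak within 5 kb (66.5 to 67.3), with a median gap to the nearest of 1575 bp. In knockdown cells the values were 75.4% (74.1 to 76.7) and 1050 bp. The shorter list was thus ahead by 8.48 percentage points (Newcombe 7.08 to 9.83), and against the 4072 tallest control peaks, 63.0% of which had such a neighbour, it was 12.4 points. Chains of at least 10 peaks with gaps of at most 5 kb held 18.5% of control peaks (534 clusters) and 37.99% of knockdown peaks (72 clusters). Kept control peaks had a control neighbour within 5 kb in 89.6% of cases, lost ones in 65.98%.

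**Figure D2:**
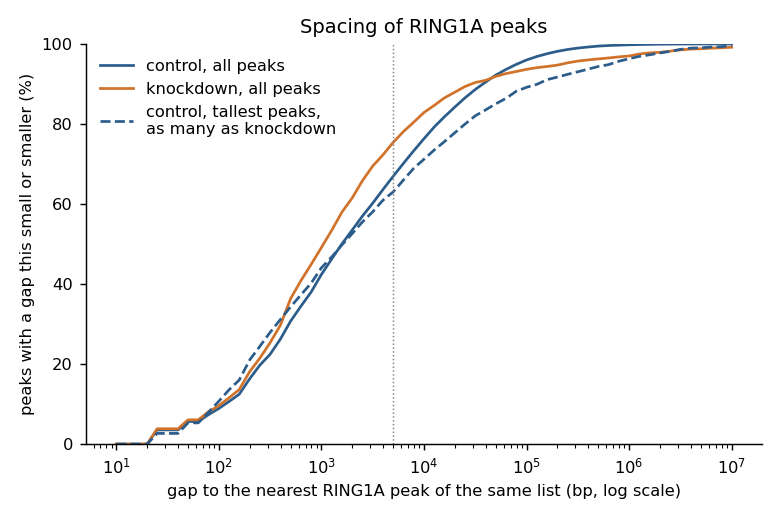
Cumulative percent of RING1A peaks (vertical axis) by the gap to the nearest peak of the same list (bp, log scale), for all control peaks, all knockdown peaks and the tallest control peaks in the number of the knockdown list. At the dotted line, 5 kb, the knockdown curve is at 75.4%, the control curve at 66.9% and the dashed curve at 63.0%.

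The fullest control clusters did not become the fullest knockdown clusters. The control cluster with most peaks, 138 in 113.6 kb at chr22:20165301-20278900, held 0 knockdown RING1A peaks. So did those at chr18:34875776-34983775 (102 peaks) and chr11:119485876-119600950 (90 peaks). In these 3 clusters uH2A mouse had 89, 77 and 56 control peaks and still had 25, 29 and 22 in knockdown cells. The other 2 of the 5 fullest held knockdown RING1A peaks, counted without regard to overlap. The cluster at chr14:34998151-35121250 went from 91 to 17 peaks, and the one at chr7:102207476-102294425 from 90 to 25. On chromosome 7 the uH2A antibodies had 1 control peak each, and RING1B had 30.

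The 3 fullest knockdown clusters had more RING1A peaks than the same spans held in control cells. These spans were chosen and bounded by their knockdown peaks, which favours that order, and a broken-up peak counts more than once. In the 100-kb window chr2:91700001-91800000 knockdown peaks covered 14.475 kb and control peaks 17.925 kb. At chr21:11100001-11200000 the lengths were 19.15 and 18.55 kb. The cluster at chr8:86726601-86840700 had 82 knockdown and 53 control RING1A peaks, with 138 knockdown H3K27me3 peaks against 44 in control and 0 uH2A peaks of either antibody in either cell line. That at chr2:91757376-91821850 had 78 against 51, and that at chr21:11086851-11157475 had 67 against 54. In the last, BMI1 had 63 knockdown and 69 control peaks, and RING1B 33 and 70.

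The knockdown list was concentrated in few places. Of its peaks, 50% lay in 22 windows of 1 Mb, against 203 windows for the control list, and the 10 fullest windows held 31.2% of knockdown and 7.65% of control peaks in their respective lists. Windows with any peak numbered 339 and 2379. A shorter list can fill fewer windows, and no control list of equal number was compared for windows. The 10 windows of the knockdown list held 171 (chr14:19000001-20000000) down to 107 peaks (chr21:9000001-10000000). Others among them were on chromosome 15 from 20000001 (143 peaks), chromosome 4 from 49000001 (135), chromosome 1 from 148000001 (128) and chromosome 2 from 91000001 (127). Between 23.2% and 80.0% of the control peaks in these 10 windows were kept. Without the 10 windows, a setting added with the data in view, the share kept over the genome was 2.98% and the ratio of peak numbers 0.0513. The windows were picked for having most knockdown peaks. That choice favours high kept shares inside them and lower values without them.

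Control windows with most lost sites were elsewhere. The window chr5:1000001-2000000 had 608 control peaks and 3 knockdown peaks, chr14:105000001-106000000 had 569 and 6, and chr5:1-1000000 had 516 and 5. The adjoining 1-Mb windows of chr21:45000001-47000000 had 303 and 322 control peaks and 0 knockdown peaks, while uH2A rabbit had 164 and 181 control and 69 and 83 knockdown peaks there. The 100-kb window with most losses was at chr22:20200001-20300000, where 114 of 115 control peaks were lost. These positions are near chromosome ends in several cases. The outermost 3 Mb at both ends of each chromosome, 4.65% of the length, held 17.2% of control peaks (16.9 to 17.5) and 7.22% of knockdown peaks (6.44 to 8.06). In them 158 of 9652 control peaks were kept, 1.64%.

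Chromosomes differed widely in RING1A density and in what remained. Control density was 18.1 peaks per Mb over 24 chromosomes, from 1.28 on X and 2.61 on 13 to 49.0 on 21 and 61.9 on 14. Knockdown density was 1.32 per Mb, with the highest values again on 14 (6.32) and 21 (5.57). The ratio of knockdown to control peaks was below 1 on 24 of 24 chromosomes, and its interval was above the ratio of the whole list on 9 and below it on 14. The lowest ratios were 0.00553 on chromosome 11 (1989 control and 11 knockdown peaks) and 0.00832 on chromosome 12. Chromosome 14 carried 6639 control peaks, the most of any, and 678 knockdown peaks. It also had the most control peaks of EED (1287), uH2A rabbit (1929), uH2A mouse (3342) and BMI1 (3324), but not of RING1B (793) or H3K27me3 (1741). Its first 20 Mb kept 42.5% of 193 control peaks, and the rest kept 4.72% of 6446. Chromosome 18 had 2242 of its 2323 control peaks in the first 40 Mb.

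Chromosome Y had the highest ratio, 0.845 (0.707 to 1.009), from 277 control and 234 knockdown peaks. The interval includes 1. Of the control peaks there, 31.4% were kept (26.0 to 37.2), and 146 of the 234 knockdown peaks were new, so similar numbers did not mean the same sites. On Y the ratios of the other antibodies were 0.600 for uH2A mouse (15 and 9 peaks), 0.931 for BMI1, 1.03 for RING1B, 1.33 for H3K27me3, 1.67 for EED (18 and 30 peaks) and 1.94 for uH2A rabbit (16 and 31 peaks). On X the RING1A ratio was 0.273 (198 and 54 peaks), with 0.841 for BMI1, 0.670 for uH2A rabbit, 0.650 for RING1B, 0.230 for H3K27me3, 0.222 for EED (9 and 2 peaks) and 0.0625 for uH2A mouse (16 and 1 peaks). Chromosome 19 had no new site among 89 knockdown peaks (0 to 4.06%), of which 79 lay in 2 clusters at 36760226 to 36799875 and 37760301 to 37794375. These 3 chromosomes were singled out after their values were seen.

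**Figure D3:**
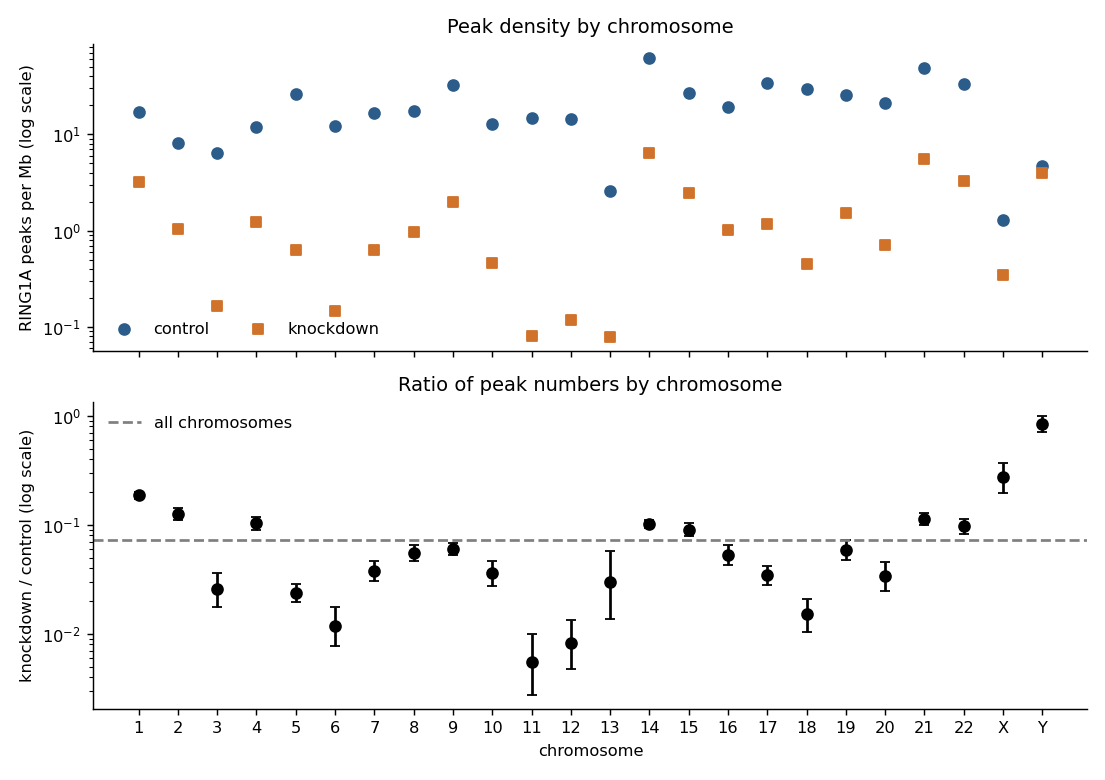
Top, RING1A peaks per Mb (log scale) on each chromosome in control (circles) and knockdown cells (squares). Bottom, ratio of knockdown to control peak numbers (log scale) with exact intervals; the dashed line is the ratio of the whole lists, 0.0727, and Y is highest at 0.845.

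Part of the remaining signal lay where several antibodies have very tall peaks. The 101 high-signal windows held 498 knockdown peaks (12.2%) and 778 control peaks (1.39%), and 40.4% of the latter were kept. Outside them, chromosomes 22, X and Y included, 3.56% of control peaks were kept and the ratio was 0.0647. On 22, X and Y the RING1B, BMI1 and H3K27me3 peaks have height 0 and could not mark a high-signal window. None of the RING1A peaks there lay in one, so these chromosomes were not screened like the others. Input or IgG reads were not analysed here, and the part of such windows in the kept signal was not tested beyond leaving them out. The tallest kept RING1A peak was in such a window, at chr10:42384901-42385300. The tallest lost peak was at chr10:42387201-42387275, 50 bp from a knockdown peak, and the tallest new one at chr18:107101-109025. Outside these windows the tallest kept peaks were at chr1:156186201-156186650, chr20:26189876-26190325, chr19:36066476-36066650, chr9:79186701-79186925 and chr12:127650426-127650650. Their heights were 1103 to 1642, and all 5 lay on RING1B and BMI1 peaks in both cell lines. High-signal windows were marked by peak height alone and repeat sequence was not assessed. A site outside them may therefore still lie in a repeat that gives peaks with several antibodies.

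Most sites that kept RING1A carried the other PRC1 proteins in control cells. Of the kept peaks, 80.6% lay on a control RING1B peak (78.9 to 82.2), against 2.95% of lost peaks (2.81 to 3.10). For BMI1 the shares were 94.8% and 18.7%. For H3K27me3 they were 31.1% and 5.23%, and for EED 17.0% and 8.10%. The uH2A shares were close in both groups: 14.3% of kept and 14.7% of lost peaks lay on uH2A rabbit, and 26.1% and 27.1% on uH2A mouse, with differences whose Newcombe intervals include 0 (-1.88 to 1.05 and -2.77 to 0.908 points). Both small differences changed sign without chromosomes 22, X and Y, to 0.618 and 0.846 points.

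Length was then held within classes, because longer peaks overlap others more easily. Height was not held, although the tallest class of control peaks kept a larger share than the other classes of height. The difference for RING1B remained 70.1 points on average over 7 classes, and for H3K27me3 23.002 points. For BMI1 it went from 76.2 to 54.8 points. The EED difference, 8.92 points without classes, turned to -1.04, a value without an interval. Its interval lay above 0 in the class of 100 bp and included 0 in every other class. For uH2A mouse the classes gave a difference of -20.0 points, and for uH2A rabbit -12.2. Among peaks of 275 to 500 bp, 28.4% of kept and 54.1% of lost peaks lay on a uH2A mouse peak, while 86.6% and 9.95% lay on RING1B. For RING1B the interval of the difference lay above 0 in each of the 7 classes. For uH2A mouse it lay below 0 in every class but that of 100 bp, where it included 0. The libraries of RING1B, BMI1 and H3K27me3 share chromosome naming and a culture description with RING1A, and those of EED and uH2A form the other set, so the set cannot be told apart from the antibodies it holds.

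**Figure D4:**
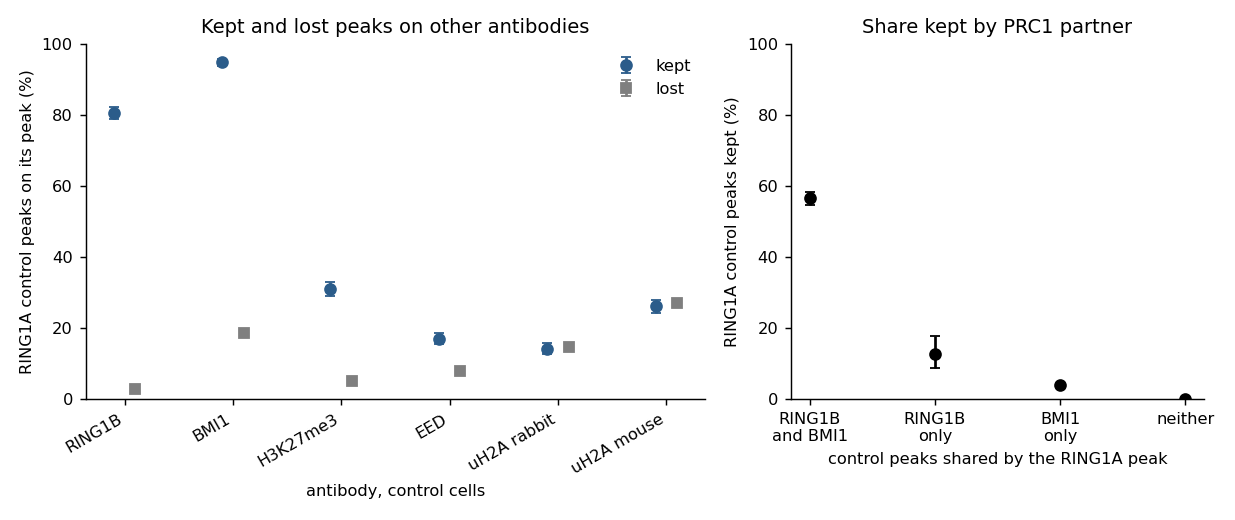
Left, percent of kept (circles) and lost (squares) control RING1A peaks that lie on a control peak of each of the other antibodies; for RING1B the shares are 80.6% and 2.95%. Right, percent of control RING1A peaks kept by whether they lie on RING1B and BMI1 peaks (56.6%), on 1 of the 2, or on neither (0.204%). Bars are Clopper-Pearson intervals.

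The control peaks were next sorted by both PRC1 partners. The 3197 peaks on both RING1B and BMI1, 5.71% of the list, kept RING1A in 56.6% of cases (54.8 to 58.3) and held 79.3% of all kept peaks. On RING1B without BMI1 the share was 12.8% of 227 peaks, and on BMI1 without RING1B 3.94% of 8989. The 43598 peaks on neither, 77.8% of the list, kept 89 peaks, 0.204% (0.164 to 0.251). At the minimum length of 75 bp, 25 of 58 peaks with both partners were kept (43.1%) and 14 of 11910 with neither (0.118%). No control RING1A peak over 1000 bp lacked both partners. With both partners present, 49.5% of peaks without H3K27me3 were kept and 75.03% of 881 peaks with it. However, 29.6% of the latter and 9.28% of the former lay in high-signal windows. On BMI1 without RING1B the shares were 3.83% without the mark and 5.36% with it. With neither partner, H3K27me3 sites kept 8 of 1994 peaks (0.401%), against 0.195% of 41604 without the mark. Length and height were not held in these comparisons of the mark.

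Solitary RING1A sites were the largest class and nearly all were lost. The 28825 control peaks without a peak of any of the other 6 antibodies, 51.5% of the list, kept 59 peaks (0.205%, 0.156 to 0.264). With 1, 2 and 3 other antibodies the share was 1.76%, 12.5% and 19.8%, with 4 it was lower at 11.2%, and with 5 and 6 it was 43.9% and 79.3%. RING1A peaks on uH2A mouse without RING1B or BMI1 kept 21 of 10308 (0.204%), the same share as all peaks on neither partner, and those on uH2A rabbit 0 of 5236, which allows a share of up to 0.0704%.

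At control sites that RING1A shared with another antibody, the most frequent outcome was that neither had a knockdown peak. That share was 42.6% for RING1B, 64.8% for uH2A rabbit, 69.5% for BMI1, 74.5% for H3K27me3, 78.97% for uH2A mouse and 85.5% for EED. Of 3424 RING1A peaks on RING1B, 53.7% met a RING1A peak in knockdown cells and 20.0% a RING1B peak. RING1A alone remained at 1282 of them, RING1B alone at 129, and where RING1B remained RING1A did so in 81.1% of cases. The RING1B knockdown list is shorter, with 1739 peaks. At 12186 sites shared with BMI1 the order was the other way, with 17.7% keeping RING1A and 26.5% keeping BMI1, both together at 1673. At sites shared with H3K27me3, 20.1% kept RING1A and 21.5% the mark, and where RING1A stayed the mark did in 80.4%. At 8239 sites shared with uH2A rabbit, 3.94% kept RING1A and 33.2% kept the mark, and at 15164 shared with uH2A mouse 3.93% and 19.96%.

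**Figure D5:**
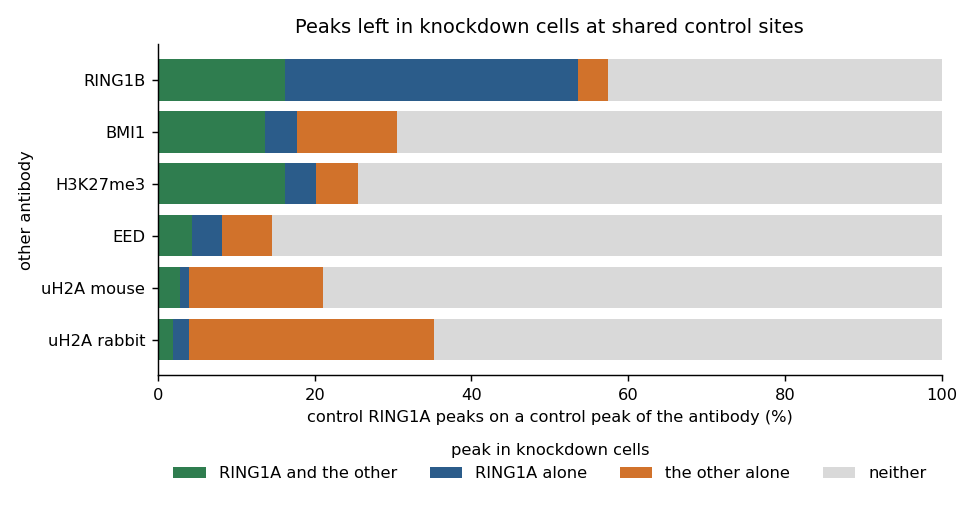
Control RING1A peaks that lie on a control peak of each other antibody (percent of such peaks), split by what is present in knockdown cells: both, RING1A alone, the other alone, or neither. RING1A alone takes 37.4% at RING1B sites, and the uH2A rabbit mark alone takes 31.3% at its sites.

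Lost and new RING1A sites differed in what remained around them. A knockdown peak of another antibody lay on 7724 of 53731 lost sites (14.4%), most often uH2A mouse (7.08%) and uH2A rabbit (5.43%). BMI1 lay on 3.14%, H3K27me3 on 0.958% and RING1B on 0.324%. The uH2A shares were close to those of all control RING1A peaks, 7.71% for mouse and 5.54% for rabbit. The uH2A antibodies also had the longest knockdown lists, 7160 peaks for mouse and 11327 for rabbit. Kept sites met each of these antibodies more often than lost sites did. Their shares were 22.4% for uH2A mouse, 8.16% for uH2A rabbit, 73.6% for BMI1, 56.1% for H3K27me3 and 24.7% for RING1B. New RING1A sites met knockdown BMI1 in 59.8%, H3K27me3 in 49.3%, RING1B in 21.8% and uH2A mouse in 0.375% of cases. Knockdown peaks on control RING1A sites met BMI1 in 73.4%, H3K27me3 in 54.7%, RING1B in 23.3% and uH2A mouse in 21.6%. Over all knockdown peaks the shares were 68.0%, 52.6%, 22.7% and 13.2%, in the same order. Of the new sites, 903 of 1601 (56.4%, 53.9 to 58.8) lay on a RING1B or BMI1 peak of control cells. New sites did so less often than the other knockdown peaks. Control BMI1 lay on 76.5% of all knockdown peaks, 94.5% of those on control RING1A sites and 48.8% of new ones. For control RING1B these shares were 64.3%, 79.5% and 40.8%. Of the 990 new sites over 1 kb from a control RING1A peak, 51.7% lay on a control RING1B or BMI1 peak. No peak of another antibody in either cell line lay on 214 of them (21.6%).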

How the data were processed

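ChIP-seq peak lists of 14 libraries were used, 1 for each of 7 antibodies in control and EED knockdown cells. The labels' protocols give reads of 40 nucleotides from 1 lane each. The submitters' processing notes name Bowtie and hg19. Versions, settings and the use of an input library are unstated in the sources used. Each library has its own deposited list of peaks. The height of a peak is a signal written by the authors' caller, with a scale that the sources do not state, and it was used to rank or filter. The score in the deposited lists was not used. Length and offset are other deposited values, in bp, and lengths are multiples of 25 bp.

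Overlap meant at least 1 bp. Chromosome length was taken as the largest peak end in any list. Numbers 23 and 24 in the EED and uH2A lists were read as X and Y. Ratios carry exact conditional intervals, shares Clopper-Pearson intervals and differences Newcombe intervals. Averages over length classes used Mantel-Haenszel weights. Overlap functions were tested on simulated data. Read depth is unknown, so peak numbers set the precision. Named regions followed a rule: the 5 tallest kept, lost and new peaks outside high-signal windows (lost and new ones over 1 kb from the other list), the tallest of each kind, the 5 longest control and 3 longest knockdown peaks, and the fullest clusters and windows. Members, lists and rules were chosen with earlier results of these data known. Windows of 1 Mb, chromosome ends and co-occupancy classes were added with the data in view. Computations used Python 3.11.15, numpy 2.4.6, pandas 2.3.3, scipy 1.17.1 and matplotlib 3.10.9.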

Additional observations from a re-analysis of the deposited data

How the results depend on the processing

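No paired analysis was possible because each group has 1 library and the labels give no replicate numbers. The ratio of peak numbers was 0.0463 among peaks that reached the control median height, 0.0656 with peaks merged within 1000 bp, 0.0681 on autosomes, 0.0672 without peaks of height 0, 0.0647 outside high-signal windows, 0.0513 without the 10 fullest 1-Mb windows and 0.0970 by covered length. The share kept was 3.11% at the height threshold, 3.87% on autosomes, 3.83% without height 0, 3.56% outside high-signal windows and 2.98% without the 10 windows. It was 36.9% with equal numbers, 2.75% with overlaps of at least 50% and 6.55% for knockdown peaks within 1000 bp. The share new was 31.9% at the height threshold, 37.3% without the 10 windows, 43.3% with overlaps of at least 50% and 24.5% for control peaks within 1000 bp. The clustering difference was 12.4 points with equal numbers, 6.57 outside high-signal windows, 6.74 with a gap of 1 kb and 6.55 with a gap of 10 kb. Chromosomes whose ratio interval lay above that of the whole list numbered 6 without height 0 and 7 outside high-signal windows, against 9. These 9 include 22, X and Y, which the setting without height 0 removes altogether. The kept minus lost difference for RING1B or BMI1 together, 77.1 points, was 55.8 within length classes. The length difference was 25 bp outside high-signal windows and reversed to -125 bp with equal numbers, since the tallest control peaks are long. The EED difference changed sign to -1.04 points within length classes, a value without an interval. The cause of this change was not tested. Depth is unknown, so a smaller number of peaks says nothing of binding below the caller's limit. With high-signal windows found from medians over heights above 0, the ratio was 0.0647 and the share kept 3.56%. With equal numbers (3617 peaks a list) of heights above 0, the share kept was 40.1%, the clustering difference 10.9 points and the length difference -125 bp. These 2 settings and the one without the 10 windows were added with the data in view. The 10 windows were those with most knockdown peaks, so leaving them out favours a lower ratio and a lower share kept.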
